A study of Homo sapiens with 42 samples.

Results

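The regions described here are stretches of chromatin that were called accessible in untreated A375 cells and in no untreated sample of 6 other cancer lines. A region is a run of at least 100 bases on chromosomes 1 to 22 or X that lies inside an interval of all 3 A375 DMSO peak lists and overlaps no interval in any of the 18 DMSO lists of the other lines. The rule found 3331 such A375-only regions among 54437 A375 regions (6.12%), which together covered 0.841 Mb of the 23.9 Mb in A375 regions. The remaining 51106 regions had an interval in at least 1 DMSO list of another line and are called the other A375 regions. The calls that chose the members are a description, so neither their presence in A375 DMSO nor their absence elsewhere is a result.

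A375 is a cutaneous melanoma line with an activating BRAF mutation. ATAC-seq, which tags accessible DNA with adapters carried by a transposase, was run on it and on 6 further human lines: 92-1 (uveal melanoma), 22RV1 (prostate), RD (rhabdomyosarcoma), DU4475 (breast), HCT116 (colorectal) and MV411 (acute myeloid leukaemia). All are labelled wild type. Cells of each line received either DMSO, the negative control, or FHT-1015, which inhibits both SMARCA4 and SMARCA2, and were collected at 4 h. Each of the 14 groups had 3 biological replicates, giving 42 peak lists.

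SMARCA4 and SMARCA2 are the alternative ATPases of the BAF complexes, which use ATP to slide or evict nucleosomes and keep many distal enhancers accessible. Enhancers differ between cell types more than promoters do, because lineage transcription factors and signal-dependent factors such as AP-1 recruit these complexes to different places. In melanoma cells the lineage factors include MITF and SOX10, and cells that have lost the pigment programme rely more on AP-1 and TEAD factors.

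The label was checked on promoters. Among 6 melanocyte transcription factors with a promoter in the reference, 5 were open in all 3 A375 DMSO lists (LEF1, MITF, PAX3, TFAP2A and TFEB), and IRF4 was not. Of 13 pigmentation genes only EDNRB, GPNMB and RAB27A were open, while the promoters of TYR, TYRP1, DCT and MLANA were not called in all 3 lists. Of 10 neural crest and dedifferentiation genes, 8 were open, among them AXL, EGFR, CDH2, ZEB1 and FOXD3. No promoter of 6 skeletal muscle or 4 intestinal genes was open, against 1 of 7 myeloid, 1 of 3 epithelial and 3 of 5 prostate genes. These promoters were not particular to A375: those of the melanocyte factors were open in 6 of 6 in RD and in 4 of 6 each in 92-1, 22RV1 and MV411, and the neural crest ones in 7 of 10 in 22RV1.

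Only a small number of A375-only regions lay on promoters, and their sequences show what those promoters look like. Members covered at least 50 bases of 30 RefSeq promoter windows (250 bases before to 50 after a start, GRCh38.p14), through 27 regions, since some starts share a region. The 250 bases before the start of 6 of them are printed 5′ to 3′ on the strand of the gene. They were chosen after their values were seen: MFAP2, INF2, MCF2L and CARS1 for their motifs, and MIA and RMEL3 as genes known from melanoma. Capitals mark the letters of 4 motifs on either strand. The AP-1 motif was searched as TGANTCA. The TEAD motif was searched as GGAATG, and that of RUNX factors as TGTGGTT. For factors of the GATA family the letters AGATAAG were used.
MFAP2, chr1:16981584-16981833, minus strand: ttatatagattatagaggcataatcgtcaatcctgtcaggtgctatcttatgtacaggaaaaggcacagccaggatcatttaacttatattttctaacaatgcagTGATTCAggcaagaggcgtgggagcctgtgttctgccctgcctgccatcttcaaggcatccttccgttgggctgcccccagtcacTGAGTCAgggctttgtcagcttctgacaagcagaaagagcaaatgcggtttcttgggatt
INF2, chr14:104680883-104681132, plus strand: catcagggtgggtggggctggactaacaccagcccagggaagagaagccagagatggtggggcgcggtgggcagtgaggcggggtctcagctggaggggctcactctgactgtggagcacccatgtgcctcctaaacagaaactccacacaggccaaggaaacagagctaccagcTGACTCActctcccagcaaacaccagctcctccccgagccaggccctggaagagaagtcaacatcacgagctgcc
MCF2L, chr13:113044396-113044645, plus strand: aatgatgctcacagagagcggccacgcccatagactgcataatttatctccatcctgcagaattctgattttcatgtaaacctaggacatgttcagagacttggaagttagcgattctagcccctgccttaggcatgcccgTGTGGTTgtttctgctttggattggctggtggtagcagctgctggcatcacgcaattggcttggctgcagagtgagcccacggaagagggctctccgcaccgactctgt
CARS1, chr11:3040985-3041234, minus strand: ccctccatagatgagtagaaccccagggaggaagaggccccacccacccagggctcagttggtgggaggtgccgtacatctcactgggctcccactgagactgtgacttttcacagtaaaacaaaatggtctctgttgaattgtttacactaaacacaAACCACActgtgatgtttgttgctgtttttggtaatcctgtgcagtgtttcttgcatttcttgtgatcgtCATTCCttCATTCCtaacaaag
MIA, chr19:40775271-40775520, plus strand: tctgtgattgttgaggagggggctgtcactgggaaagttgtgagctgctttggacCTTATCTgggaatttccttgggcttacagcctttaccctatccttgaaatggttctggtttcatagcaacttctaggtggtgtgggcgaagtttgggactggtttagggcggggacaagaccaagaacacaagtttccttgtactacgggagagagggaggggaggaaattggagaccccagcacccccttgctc
RMEL3, chr5:57394857-57395106, plus strand: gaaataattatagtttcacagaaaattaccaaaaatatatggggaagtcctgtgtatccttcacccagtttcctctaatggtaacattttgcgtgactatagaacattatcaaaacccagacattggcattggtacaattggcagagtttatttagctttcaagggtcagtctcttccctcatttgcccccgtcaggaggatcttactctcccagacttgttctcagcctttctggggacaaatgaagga

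The window of MFAP2, which encodes a microfibril protein of the extracellular matrix, held AP-1 letters at 2 places, and that of INF2, a formin acting on actin, at 1 place. CARS1, a cysteinyl-tRNA synthetase, had TEAD letters at 2 places and RUNX letters at 1. The window of MCF2L, a guanine nucleotide exchange factor, had RUNX letters at 1 place in the bases shown, and its AP-1 match crosses the start and is not printed. In these 4 windows every capital base lay inside the A375-only region. The GATA letters of MIA lay outside it, and RMEL3 had none of these motifs.

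Over the 30 windows, AP-1 letters occurred in 7 (23.3%), against 5.52% of the 14972 windows open in A375 and 7.68% of all 34961 windows. RUNX letters occurred in 16.7% against 2.77% and 4.28%, GATA letters in 10% against 0.995% and 2.67%, and TEAD letters in 20% against 10.4% and 14%. CTCF letters (AGGNGGC) went the other way, in 20% of windows against 47.5% and 35.9%. The E-box letters CACGTG, read by MITF, were in 10%, 9.89% and 7.27%. Further motifs were searched: ETS letters (GGAAGT) were in 36.7%, 26.4% and 22.8%, and SOX letters (ACAATG) in 13.3%, 5.96% and 10.7%. TFAP2 letters (CCTNAGG) were in 6.67%, 11.2% and 11.3%. The E-box of myogenic factors (CAGCTG) was in 13.3%, 16.5% and 18%. That of ZEB and SNAI (CAGGTG) was in 13.3%, 16.9% and 20.6%. Starts that share a region count more than once here. By region, windows with AP-1 letters belonged to 7 of the 27, RUNX letters to 4, GATA letters to 2 and TEAD letters to 6. The whole window was searched, so letters can lie outside the region, as those of GATA did in MIA. The windows of the members also held less G and C, on average 48.5% against 65.7% in open A375 windows and 57.6% in all windows. Base composition thus differed between these sets of windows, its part in the shares was not tested, and a match in letters is not a bound site.

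Members on promoters differed in how often they were called after treatment. The MCF2L region had −log10 q of 27.3, 19.9 and 11 in DMSO replicates 1, 2 and 3 and 5.75, 28.6 and 6.5 with FHT-1015. The CARS1 region had 4.92, 14.9 and 1.62 in DMSO and was called in 0 of 3 FHT-1015 lists. MIA encodes a protein secreted by melanoma cells, and its region had 10.2, 10.9 and 1.67 in DMSO and was called with FHT-1015 in replicates 2 (20.3) and 3 (1.26). These 3 promoters therefore span the range from calls in every treated list to calls in none.

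RMEL3, a long non-coding RNA named for its expression in melanoma, had weak calls in DMSO (1.24, 2.49 and 1.52) and stronger ones with FHT-1015 in replicates 1 (7.56) and 2 (21.7), with no call in replicate 3. The ranges of its called values did not overlap, but the missing call did not share that direction. Of the 27 regions on promoters, 11 were called in all 3 FHT-1015 lists and 5 in none. Of all A375 regions 56.5% were called in all 3 and 9.64% in none. Of all members 22% and 25.5% were, and of the other A375 regions within 1 kb of a start 90.8% and 0.829%.

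As a set the A375-only regions were short and far from genes. Their median length was 207 bp against 365 bp for the other A375 regions. Off chromosome 8, for which no promoter entries were used, 70 of 3200 members (2.19%) had their midpoint within 1 kb of a protein-coding start, against 24.8% of 48626 other A375 regions. The median distance to such a start was 72.4 kb against 32.8 kb, and 58.7% against 42.1% lay more than 50 kb away. Inside a protein-coding gene lay 47.8% of members and 52.8% of the others. Distance from starts was shared with the regions that the same rule found in the other lines, of which 0.577% (92-1) to 4.62% (HCT116) lay within 1 kb of a start.

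**Figure D1:**
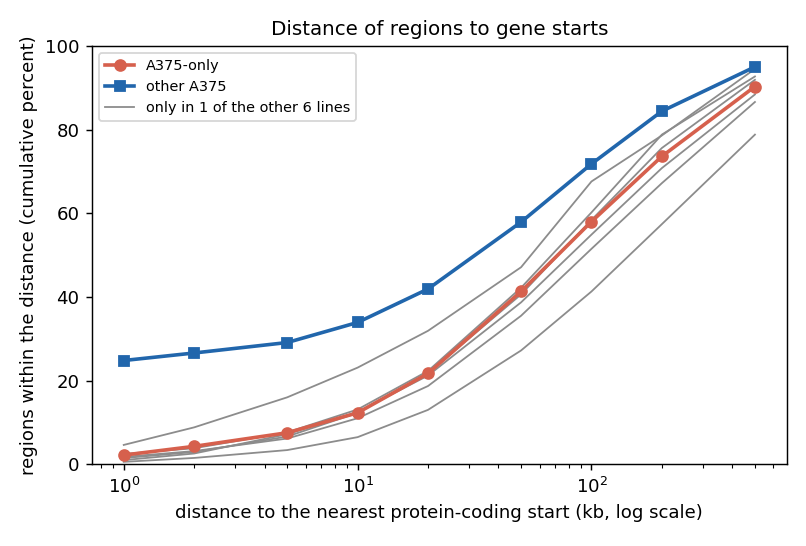
Cumulative percent of regions (vertical axis) within a given distance of the nearest protein-coding start (horizontal axis, kb, log scale), for A375-only regions, other A375 regions and regions found only in each of the other 6 lines. The A375-only curve starts at 2.19% at 1 kb and runs among the curves of the other lines' own regions, below that of the other A375 regions, which starts at 24.8%.

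The same rule gave 4910 regions in 92-1, 8122 in 22RV1, 2817 in RD, 3442 in DU4475, 255 in HCT116 and 27817 in MV411. These numbers depend on how much the lists cover: the 18 DMSO lists of the other lines together covered 595 Mb. Where the 3 lists of 92-1, the other melanoma line, were not required to lack an interval, the A375 number was 6486 in place of 3331. The further 3155 A375 regions were shared with 92-1 alone. In the same way 956 were shared with RD alone, 895 with HCT116 alone, 824 with MV411 alone, 788 with 22RV1 alone and 663 with DU4475 alone. The DMSO lists of 92-1 also covered most bases, 215 Mb against 99.1 to 147 Mb in the other lines, and the part of this cover in its larger number was not tested.

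Members sat close to the edge of the rule. The median member lay 256 bp from the nearest interval of another line, 2370 (71.1%) lay within 500 bp of one, and the farthest lay 9.29 kb away. At the length limit, 207 members were under 120 bp long and 174 segments of 80 to 99 bp fell just outside. At the overlap limit, 203 regions were left out by an overlap of at most 20 bases and 3842 by an interval in a single list, while 8628 regions had an interval in all 18 lists.

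Across chromosomes, members made up from 2.53% of A375 regions on chromosome 19 (41 of 1623) to 9.81% on X (147 of 1498), with chromosome 13 at 9.23% and chromosome 15 at 8.48%. Chromosome 19, which is dense in genes, ranked lowest in all 7 lines, and X ranked highest in A375, 92-1, DU4475 and MV411. Chromosome 15 ranked 3 from the highest in A375 and between 12 and 21 in the other lines. The copy number of the chromosomes in each line was not analysed here.

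The genes with the highest counts of members were long. GLIS3, a zinc finger transcription factor on chromosome 9 (3824127 to 4490465), held 7 members among its 32 A375 regions, and GPC6, a cell surface heparan sulfate proteoglycan, held 6 of 26. A further 11 genes held 5 members each, of which the alphabetically leading 6 are named: DMD (dystrophin, 5 of 18 regions), MACROD2 (5 of 26), MYO1E (an unconventional myosin, 5 of 16), NRXN3 (a neurexin, 5 of 22), NTM (neurotrimin, 5 of 28) and PDE4D (a cAMP phosphodiesterase, 5 of 42). These 8 genes, picked for their counts, were 240 to 2220 kb long, and members were 6.12% of all A375 regions. In all, 1229 protein-coding genes held a member, 250 held at least 2 and 13 at least 5.

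Of all members, 34%, 64.7% and 43.4% were called in FHT-1015 replicates 1, 2 and 3, beside 66.8%, 86.2% and 74.2% of the other A375 regions. Of the 7 in GLIS3 5, 6 and 3 were called, and of the 6 in GPC6 5, 3 and 2. Of the 5 members of each further gene, 1, 1 and 0 were called in DMD, 1, 3 and 1 in MACROD2, 3, 2 and 1 in MYO1E, 4, 3 and 1 in NRXN3, 3, 3 and 3 in NTM, and 1, 5 and 3 in PDE4D. With so few members per gene, no difference between genes is read from these counts.

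Of the densest megabases, 3 held 9 members each. On chromosome 5, from 57000001 to 58000000, members made up 9 of 39 A375 regions and included the RMEL3 promoter. On chromosome 1, from 51000001 to 52000000, they made up 9 of 35, around RNF11, EPS15 and RAB3B, and on chromosome 8, from 138000001 to 139000000, 9 of 34. A further 3 held 8. The megabase of chromosome 3 from 69000001 to 70000000, which holds the start of MITF, had 8 of 44. That of chromosome 9 from 4000001 to 5000000, around GLIS3, had 8 of 41, and that of chromosome 12 from 92000001 to 93000000, around BTG1, 8 of 40. Called in all FHT-1015 lists were 3 members each in the windows of chromosomes 3, 5 and 12, 2 on chromosome 9, and 1 each on chromosomes 1 and 8. Of all members 22% were. These windows were picked for their counts, and members were 6.12% of all A375 regions.

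In DMSO the members were weaker than the other A375 regions, which matters for every comparison with the treated lists. The peak over a member had a median fold enrichment of 4.73, 5.01 and 3.74 in replicates 1, 2 and 3, against 5.99, 6.6 and 4.43 for the others. Its −log10 q was at least 5, called strict here, in 1560, 1606 and 388 of the 3331 members (46.8%, 48.2% and 11.6%). Of the other A375 regions 70%, 73.4% and 35.7% had such a peak. DMSO replicate 3 stood apart from the others, with 26365 strict peaks against 60943 and 65602, and FHT-1015 replicate 2 had 67237 against 27964 and 32095. The background of a list, a stand-in for its depth recovered from fold and p, was 0.901, 0.679 and 0.606 in DMSO and 1.35, 1.27 and 0.707 with FHT-1015. By this measure treated replicates 1 and 2 were deeper than every DMSO list.

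Because members are called in all 3 DMSO lists by construction, the DMSO lists cannot serve as their own control. Regions were therefore chosen again from 2 DMSO lists, with the same absence from the other lines, and the share called in the held-out list was taken as the control. This share was 69.4%, 74.3% and 51.6% in DMSO replicates 1, 2 and 3 (4837, 4615 and 5673 regions). With FHT-1015, averaged over the 3 choices, it was 25.1%, 50.9% and 32.6%. Every treated list lay below every control, although treated replicate 2 and DMSO replicate 3 lay close to each other.

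The mean was 65.1% ± 12 in DMSO and 36.2% ± 13.3 with FHT-1015 (SD, n = 3 each), a difference of −28.9 percentage points (two-sided exact permutation test, p = 0.1, the smallest that 3 against 3 allows). For the other A375 regions the shares were 87.5%, 91.2% and 73.6% in DMSO and 59.1%, 79.3% and 66.7% with FHT-1015. Their means were 84.1% ± 9.29 and 68.4% ± 10.2 (SD, n = 3 each), a difference of −15.7 points with overlapping lists (exact permutation p = 0.2). The difference for A375-only regions was −29.4 points with evaluated peaks at −log10 q of at least 1.3, −14.8 with strict and −13.6 with thinned evaluated lists. In each of these settings the treated and control lists overlapped (exact permutation p = 0.2 each). They also overlapped where a call had to cover at least as much of a region as it left out (−29.5 points, exact permutation p = 0.2). The difference was −4.1, −4.41 and −9.19 points without DMSO replicate 1, 2 or 3, when regions are chosen from 1 list. As deposited, treated lists held 55.6% of the control share of A375-only regions and 81.3% of that of the other regions.

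**Figure D2:**
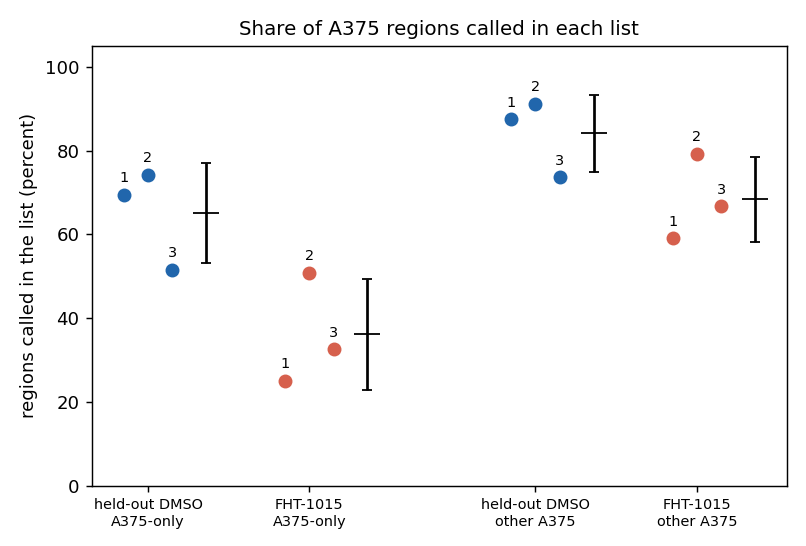
Percent of regions called (vertical axis) in each held-out DMSO list (blue) and each FHT-1015 list (red) of A375, for A375-only regions (left) and other A375 regions (right). Numbers are replicates and the bars beside the points are mean ± SD (n = 3). A375-only regions were called at 51.6% to 74.3% in DMSO and 25.1% to 50.9% with FHT-1015, while the lists of the other regions overlapped.

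The difference between both sets was tested as a gap within each list. Both sets differ in strength and in their control share, so a change of depth can move their shares unequally. In DMSO, A375-only regions were called less often than the others in every list, with gaps of −18, −16.9 and −22 points, and with FHT-1015 the gaps were −34, −28.4 and −34. The gap was −19 ± 2.68 points in DMSO and −32.1 ± 3.27 with FHT-1015 (SD, n = 3 each), a change of −13.2 points, and the groups did not overlap (exact permutation p = 0.1, the smallest possible). On the scale of ratios, log2 of the share of A375-only regions over that of the others changed by −0.59 (p = 0.1, exact permutation). The change in points was −11.4 with evaluated peaks at −log10 q of at least 1.3 and −12.7 with lists shortened to equal length (exact permutation p = 0.1 each). It was −0.554 with strict peaks (exact p = 0.9) and turned to 3.14 with lists thinned to equal background (exact p = 0.6), where the log2 ratio changed by −0.98 (p = 0.2) and −1.16 (p = 0.1). Without DMSO replicate 1, 2 or 3, when regions are chosen from 1 list, it turned to 3.22, 2.18 and 3.88.

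Distance from starts moved with this gap. Restricted to regions more than 1 kb from a start, the share was 65.1% ± 12.2 in DMSO and 36% ± 13.4 with FHT-1015 for A375-only regions and 81.3% ± 10.3 and 61.9% ± 12.3 for the others (SD, n = 3 each). The gap then changed by −9.65 points (exact permutation p = 0.1), without overlap. The restricted sets still differ in strength, and the thinned and left-out lists were not run for them.

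Strength moved with the share too. Regions were divided at the quartiles of the members' strength, the lowest within-list percentile of −log10 p over the lists that chose them. In the weakest quartile, A375-only regions were called at 38.4% ± 13.8 in DMSO and 18.4% ± 8.58 with FHT-1015, and in the strongest at 90.8% ± 5.43 and 62% ± 15.8 (SD, n = 3 each). The other A375 regions went from 50.3% to 34.4% in the weakest quartile and from 96.9% to 85.9% in the strongest. The gap changed by −4.11, −8.76, −11.2 and −17.8 points from the weakest to the strongest quartile (exact permutation p = 0.2, 0.1, 0.1 and 0.1). The strongest quartile has no upper limit, and most of the other regions fall in it.

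**Figure D3:**
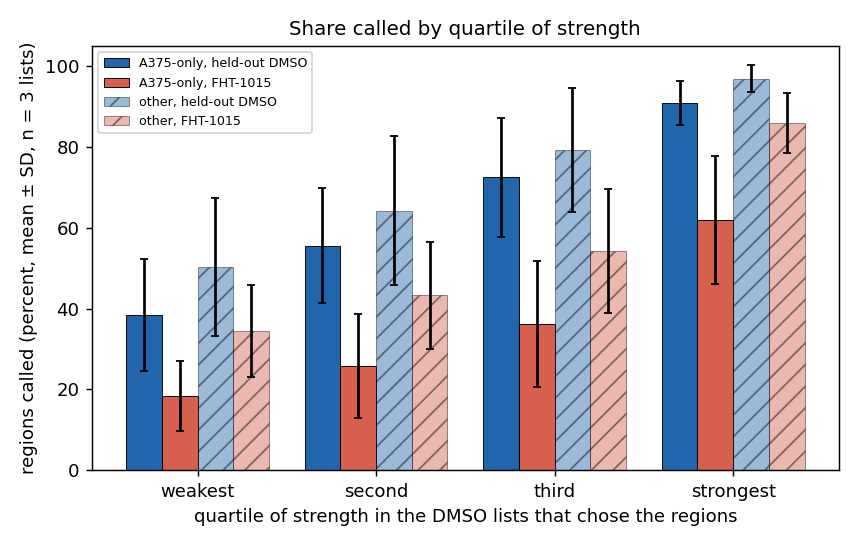
Percent of regions called (vertical axis, bars are means of 3 lists, error bars SD) in held-out DMSO and FHT-1015 lists, by quartile of strength (horizontal axis), for A375-only and other A375 regions. In the strongest quartile A375-only regions were called at 90.8% in DMSO and 62% with FHT-1015, and the others at 96.9% and 85.9%.

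The shares differed with how many lines held a region. When A375 regions were divided by the number of other lines with an interval in a DMSO list, the treated share was 36.2% ± 13.3 at 0 lines, 43% ± 13.7 at 1, 51.4% ± 13.5 at 2, 60.8% ± 13.2 at 3, 69.6% ± 12.1 at 4, 80% ± 9.95 at 5 and 95.5% ± 3 at 6 (SD, n = 3 each). The control share was 65.1% ± 12 at 0 lines and 95.7% ± 3.85 at 6. In points the difference was −28.9 at 0 lines, −29.8 at 1, −26.3 at 2, −20.8 at 3, −15.5 at 4, −7.22 at 5 and −0.142 at 6, so it was as large at 1 line as at 0. Relative to the control the treated share was 55.6%, 59%, 66.2%, 74.5%, 81.7%, 91.7% and 99.9%. Only the A375-only regions and those shared with 1 line had treated lists wholly below the controls. Median strength (50.5 to 85.7) and the share within 1 kb of a start (2.19% to 59.4%) rose along the same order, and their part was not tested.

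**Figure D4:**
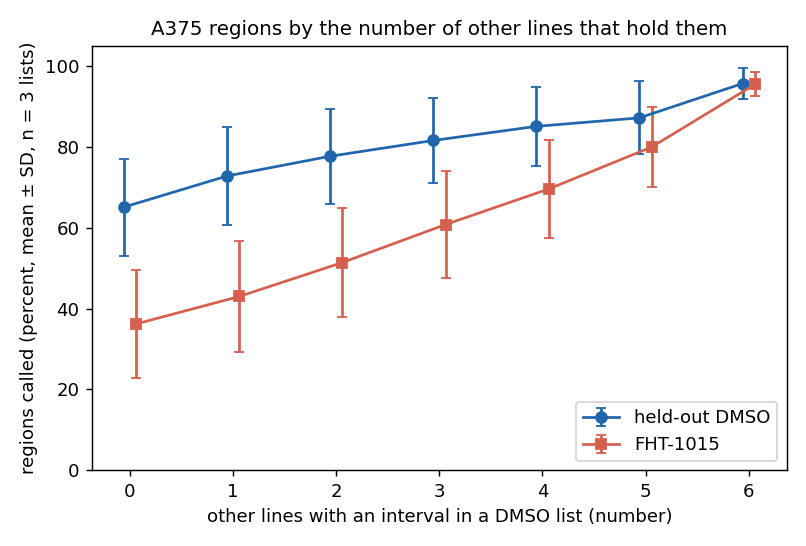
Percent of A375 regions called (vertical axis, mean ± SD over 3 lists) in held-out DMSO and FHT-1015 lists, by the number of other lines with an interval in a DMSO list (horizontal axis). The distance between the lines is −28.9 points at 0 other lines, −29.8 at 1 and −0.142 at 6.

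Counted region by region, 848 of the 3331 members (25.5%) were called in 0 of 3 FHT-1015 lists, beside 9.64% of all A375 regions. Called in all 3 were 733 (22%), beside 56.5% of all A375 regions, and 966 and 784 were called in 1 and 2 lists. Single lists held 1134, 2155 and 1444 members (34%, 64.7% and 43.4%), beside 66.8%, 86.2% and 74.2% of the other A375 regions. The members called in all 3 treated lists were longer (median 306 bp against 165 bp for those called in none), and 3.83% against 1.36% of them lay within 1 kb of a start. With a missing peak taken as 0, the −log10 q of all 3 treated lists lay below that of all 3 DMSO lists in 1558 members (46.8%), beside 26.2% of all A375 regions. These counts have no DMSO control of their own, since all members were called in DMSO by the rule.

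Among the 271 members that were strict in all 3 DMSO lists, 81 (29.9%) were strict in no FHT-1015 list, beside 9.52% of all such A375 regions, and 55 (20.3%) were strict in all 3, beside 64.6%. Most of them were still called at the lenient threshold of the deposited lists: 11 (4.06%) were called in none, beside 0.469%, and 181 (66.8%) in all 3, beside 90.8%. These regions were chosen for strict peaks in DMSO, so lower values in further lists follow in part from the choice, and no held-out control was computed for them.

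The 10 strongest members differed from one another in their treated values, and each was still called in at least 2 FHT-1015 lists. The strongest, chr13:36717946-36718555, lay 20.4 kb outside SERTM1 and had −log10 q of 30.1, 39.1 and 20 in DMSO and 24.5, 90.4 and 35 with FHT-1015. A 999-bp region 104 kb from EPHA3, an ephrin receptor, had 28.7, 30 and 15.7 in DMSO and 29.9, 60.8 and 27.1 when treated. A region inside RAP1A, a small GTPase of cell adhesion, had 26.9, 41.6 and 19.4, then 23.7, 72.1 and 29.1. In these 3 regions the treated and DMSO values overlapped, and treated replicate 2 was highest.

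The region in CAPN14, a calpain protease, 0.548 kb past its start, had 26.6, 27.6 and 13.4 in DMSO and 6, 23.5 and 5.72 with FHT-1015. Near ADAMTS16, a secreted metalloprotease 767 kb away, the values were 30.1, 24.1 and 12.2, then 10.5, 21.2 and 3.42. In both, treated replicates 1 and 3 lay below all DMSO values, and treated replicate 2 lay within the DMSO range. In OXR1, a gene of oxidative stress resistance, both groups overlapped (41.1, 26.4 and 13.6, then 13.3, 40.7 and 13.3).

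In 3 of the 10 strongest members the treated values lay wholly below the DMSO values, as they did in 46.8% of all members and 26.2% of all A375 regions. The region 39.4 kb from KCNA5, a voltage-gated potassium channel, had 42.8, 33.5 and 11.6, then 0.745 and 3.03, with no call in replicate 3. That near TMEM114 had 30.3, 24.7 and 13.5, then 3.39, 5 and 2.49, and that in C4orf51 had 27.2, 24 and 14.2, then 2.75, 10.7 and 2.04.

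**Figure D5:**
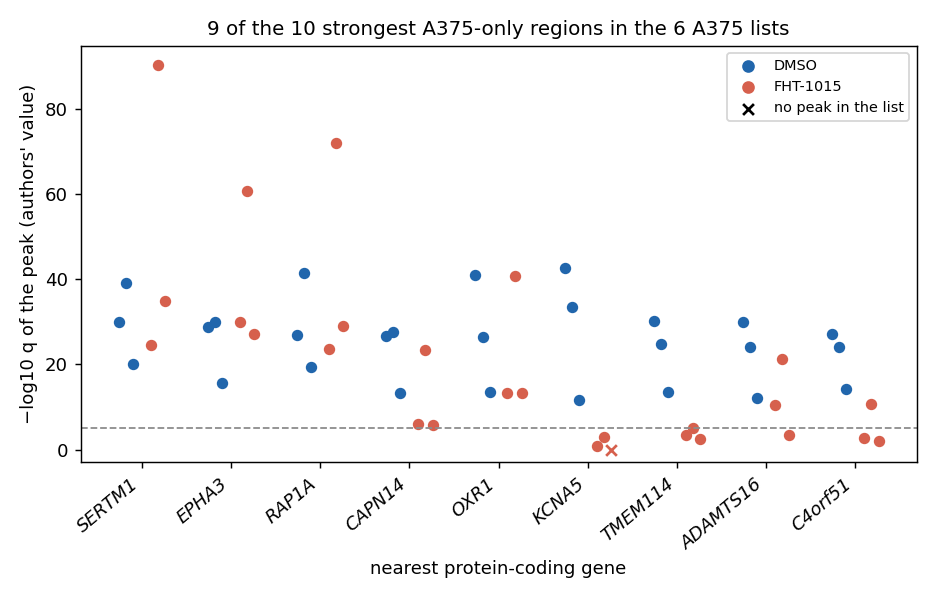
The authors' −log10 q (vertical axis) of 9 of the 10 strongest A375-only regions, named by nearest protein-coding gene (horizontal axis), in 3 DMSO lists (blue) and 3 FHT-1015 lists (red) of A375. Points are single lists in replicate order from left to right, a cross marks a list without a peak, and the dashed line is the strict threshold of 5. KCNA5, TMEM114 and C4orf51 have all treated values below all DMSO values.

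The strongest members with no strict call after treatment also lay near SMIM42, NEURL1B, GRIN3A and ADCY2. The SMIM42 region had 26.1, 21.2 and 11.8, then 3.28, 3.18 and 1.09. The NEURL1B region, whose nearest start is that of the phosphatase gene DUSP1 at 47.4 kb, had 15.9, 16.4 and 8.52 and was called with FHT-1015 only in replicate 2, at 4.19. The GRIN3A region, near an NMDA receptor subunit, had 22.4, 18 and 7.17, then 1.39 and 0.888 in replicates 2 and 3. In ADCY2, an adenylyl cyclase, the values were 15.3, 14.6 and 10.2, then 3.4 and 3.72 in replicates 1 and 2. In all 4, which the absence of strict calls chose, treated values lay below the DMSO values.

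Members near genes of the lineage and of its signalling were counted against those near all genes. Within a gene and 100 kb on each side, members were 5.51% of the A375 regions of all protein-coding genes (2585 of 46946), and 24.7% of genes had one. For 8 melanocyte transcription factors they were 5 of 87 (5.75%), at 2 genes. For 15 pigmentation genes they were 5 of 127 (3.94%), at 5 genes, and for 17 neural crest and dedifferentiation genes 3 of 148 (2.03%), at 3 genes. AP-1 family genes had 4 of 151 (2.65%), YAP and TEAD genes 7 of 141 (4.96%), MAPK feedback genes 7 of 167 (4.19%), and matrix and adhesion genes 8 of 167 (4.79%). As a share of genes, 41.7% of YAP and TEAD genes had a member, 40% of MAPK feedback genes, 33.3% of pigmentation and of matrix genes, 25% of melanocyte factors and of AP-1 genes, and 17.6% of neural crest genes. Genes of other cell types had 5 of 78 (epithelial, 6.41%), 3 of 63 (skeletal muscle, 4.76%) and 3 of 76 (myeloid, 3.95%). Prostate genes had 1 of 51 (1.96%) and intestinal genes 2 of 75 (2.67%). The epithelial gene GRHL2 alone had 4 members. The stronger member of the intestinal gene HNF4A had −log10 q of 11.6, 7.82 and 4.27 in DMSO, then 2.15 in treated replicate 2 alone. By regions the lineage and signalling groups ran from 2.03% to 5.75% and those of other cell types from 1.96% to 6.41%, beside 5.51% for all genes. By genes they ran from 17.6% to 41.7% and from 10% to 30%, beside 24.7%.

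MITF, the master regulator of melanocytes, had 3 members. A region of 363 bp, 1.53 kb past one of its starts, had −log10 q of 4.59, 7.42 and 1.5 in DMSO and 2.58, 4.49 and 4.62 with FHT-1015. A region 88 kb outside the gene had 4.77, 7.13 and 3.38, and was called with FHT-1015 only in replicate 2, at 6.36. The remaining region, of 143 bp and inside the gene, was weak (1.18, 2.87 and 1.8) and was not called after treatment. Regions called in all, in 1 and in none of the treated lists thus lay at or near this gene. A missing call in a region this weak does not show closed chromatin.

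SOX10, which acts upstream of MITF, had 2 members, both inside the neighbouring gene POLR2F. The stronger, at chr22:38031408-38031877, had 15.4, 23.2 and 3.51 in DMSO and 3.02, 46.3 and 9.63 with FHT-1015. The other, at chr22:38037827-38038063, had 34, 21 and 0.466, then 24.9 and 4.9 in replicates 2 and 3. Both overlapped between groups, and DMSO replicate 3 was the lowest or near the lowest in each.

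Among pigmentation genes the region in MLANA, a melanosome protein, had 7.87, 2.92 and 2.3 in DMSO and 0.822 and 0.318 in treated replicates 2 and 3. The region near OCA2, inside the neighbouring gene HERC2, had 6.42, 12.8 and 1.71, then 2.16 in replicate 3 alone. The region near KIT, a receptor kinase of melanocyte precursors, had 3.89, 1.7 and 1.43 and was not called after treatment. A region in C1QTNF3 within 100 kb of SLC45A2, a melanosome transporter, was stronger (24.6, 15.8 and 7.32, then 3.3, 17.1 and 5.12) and is named after its values were seen. At MLANA and KIT the treated lists had lower values or none, and at the SLC45A2 region both groups overlapped.

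JUN, a subunit of AP-1, had 2 members 16.4 and 17.4 kb outside the gene. The longer, chr1:58764078-58764613, had 8, 14.6 and 5.53 in DMSO and 2.69 and 2.61 in treated replicates 2 and 3. Near FOSL2, another subunit, a region of 145 bp had 3.29, 1.84 and 2.57 and was not called after treatment. The region in IQCN near JUND had 4.27, 5.37 and 0.963, then 1.74 in replicate 2 alone. At JUN's longer region and at FOSL2 every treated value lay below those of DMSO or was missing, and at JUND the values overlapped.

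AMOTL1, a regulator of YAP, held 2 members, of which chr11:94749389-94749775 had 5.86, 10.9 and 2.35, then 0.777 and 0.782 in replicates 2 and 3. The region 34.4 kb from YAP1 had 17.1, 2.84 and 5.59, then 2.85 in replicate 2 alone. The other member near YAP1, inside BIRC3, had 3.96, 3.91 and 1.12 in DMSO and 4.88, 12.5 and 1.65 with FHT-1015, so both groups overlapped. A region 0.983 kb before RPP30, in the window of ANKRD1, had 2.3, 0.832 and 8.88, then 1.58 and 58.8 in replicates 1 and 2. The value of 58.8 was the highest among the members named for these gene groups and came from a single list.

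Of the MAPK feedback genes, the DUSP6 region 19.2 kb outside this ERK phosphatase had 13.2, 3.58 and 6.5, then 10.1 in replicate 2 alone. Of 2 DUSP5 members, the one that ranked higher by strength had 4.04, 4.47 and 2.18 and was not called after treatment. The other DUSP5 member had 9.54, 7.18 and 1.12, then 1.2, 5.53 and 2.52, so both groups overlapped. The region in EPHA4 had 3.25, 3.91 and 2.04, then 1.65 in replicate 3. Near CD44, an adhesion receptor with 3 members, chr11:35040804-35041004 had 11.4, 16.3 and 3.19, then 1.63, 8.14 and 0.318. The region 71.2 kb before THBS1, a matrix glycoprotein, had 9.2, 18.6 and 3.76, then 2.39 and 4.71. Of the 7 members of the MAPK feedback genes 2 were called in no treated list and 1 in all 3, and of the 8 of the matrix genes 2 and 1. Among members near all protein-coding genes, 24.9% were called in none and 22.2% in all 3, and counts this small do not depart visibly from those shares.

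Averaged over the 6 other lines, A375-only regions were called less often with FHT-1015 than in DMSO, but not in every line. When members were chosen without 1 DMSO list of another line, 5.9% on average over 6 lines were called in that list, and 4.12% were called in the FHT-1015 lists of the line. The difference was −1.78 points (two-sided permutation test within lines, p = 0.0146). It was −0.558 with lists shortened to equal length, −0.332 with strict and −0.158 with thinned evaluated lists (permutation p = 0.0327, 1e-05 and 0.00076, where 1e-05 is the smallest that the draws can give). The size in points came mostly from 92-1, where DMSO lists held 16.3%, 10.5% and 9.16% and FHT-1015 lists 5.55%, 3.85% and 3.24% (12% ± 3.83 against 4.21% ± 1.19, SD, n = 3 each; exact permutation p = 0.1, adjusted p = 0.3 over 6 lines). Without 92-1 the difference was −0.578 points (permutation p = 0.241), while the thinned lists, which leave 92-1 out, passed the test at a smaller size. Backgrounds of 92-1 ranged from 0.0839 to 0.43 in DMSO and from 0.0341 to 0.299 with FHT-1015, and the part of this lower background was not tested. Its lists held 355876 to 431956 peaks in DMSO and 179390 to 286272 with FHT-1015. Regions of 92-1 that another line also held were called at 67.3% in held-out DMSO lists and 33.5% with FHT-1015. Whether A375-only regions differed from such regions was not tested.

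RD also had treated lists (3.29%, 2.66% and 4.41%) below its DMSO lists (5.85%, 4.86% and 5.15%), with an adjusted p of 0.3 from the exact permutation test. The other lines overlapped: 22RV1 had 5.28% ± 1.13 in DMSO and 6.01% ± 1.41 with FHT-1015, HCT116 5.86% ± 1.91 and 4.39% ± 2.61, DU4475 4.07% ± 0.406 and 3.9% ± 0.835, and MV411 2.9% ± 1.37 and 2.76% ± 0.394 (SD, n = 3 each). Counted singly, 1507 members (45.2%) had a call in at least 1 of the 18 FHT-1015 lists of other lines, and 9 were called in all 3 of a line. These lists held 114291 to 371713 peaks each, and the share over a comparison set was not computed. The counts are therefore not read as opening by treatment. The strongest of these 9 lay 359 kb from DPP6 and 490 kb from PLA2G4A, both in 22RV1, and 93.1 kb from CHIC2, in DU4475.

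The change of the share was set beside that of each other line's own regions. For 92-1 the held-out DMSO share was 37.5% and the treated share 10.5%. The 22RV1 shares were 63% and 23.7%, those of RD 51.4% and 22%, those of DU4475 51.6% and 38.7%, those of HCT116 18.4% and 13.6%, and those of MV411 82.9% and 37.3%. The changes ran from −45.6 points in MV411 to −4.74 in HCT116, around −28.9 in A375. The regions of each line that another line also held went from 67.3% to 33.5% in 92-1 and from 79.1% to 60.8% in 22RV1. Those of RD went from 78.1% to 54.5% and those of DU4475 from 75.7% to 68.7%. In HCT116 they went from 76.6% to 71.5% and in MV411 from 88.7% to 62.6%. In 92-1 and HCT116 the line's own regions changed less than these in points, and in the remaining lines more. This contrast was not tested. The change in A375 minus that in another line ran from −24.2 points (HCT116) to 16.7 points (MV411), and no difference passed the exact permutation test (adjusted p = 0.975 for each of 6 lines). With 3 lists per group these tests do not show that the lines respond alike.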

How the data were processed

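ATAC-seq peak lists of 42 samples were used, 1 narrowPeak list per sample, so replicates were not pooled. The submitters' processing notes name Bowtie2, Picard, MACS2, limma, HOMER and the build hg38, without versions or roles; whether reads were shifted for the transposase is not stated there. The deposited fold enrichment is the authors' ratio of pileup to background. The deposited p-values and q-values are on the −log10 scale. The deposited score was not used. The lists reach down to −log10 p of 2, a lenient threshold.

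Intervals were joined within a list, and a region was called in a list when at least 1 base overlapped. Pileup and background were solved from fold and p (tolerance 0.01 on −log10 p). Only whole-number pileups were tried. Such a pileup met this tolerance for 100% of the peaks tested in every list, those with −log10 p up to 30. Lists hold no reads, so the background (0.606 to 1.35 in A375, from 154375 to 233074 peaks) stood in for depth. For thinning, pileups were drawn down to 0.5 of the lowest background of a line, and −log10 p of at least 5 was required. Lines with a background below 0.1 (92-1) were not thinned.

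Genes and promoter starts came from RefSeq tables of GRCh38.p14, 19974 protein-coding genes, with no genome sequence, so distal regions have no sequence here. The gene lists and the rule for naming were these: the 10 strongest members (1 of them is not reported here), the 5 strongest kept or lost at the strict level, 8 of the genes holding most (ties taken alphabetically), up to 3 genes per list, and the 3 strongest members called in another line's treated lists. The members and lists were chosen with earlier results of these data known. Exact permutation tests were two-sided, with 100000 draws where lines were strata, and Benjamini-Hochberg adjustment. The interval rule, the held-out share and the solving of pileups were tested on simulated lists. Work was done in Python 3.11.15, numpy 2.4.6, pandas 2.3.3 and scipy 1.17.1. Same-numbered DMSO and FHT-1015 samples of A375 did not deviate together (correlations over 14423 regions of −0.01, 0.05 and 0.02), so numbers were not taken as pairs. No 2 A375 lists shared more than 0.0762% identical intervals.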

Additional observations from a re-analysis of the deposited data

How the results depend on the processing

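The number of A375-only regions depended on the rule. It was 1741 for segments of at least 200 bp, 961 with no interval of another line within 500 bp, 2126 with A375 peaks at −log10 q of at least 1.3, 271 with strict A375 peaks and 6486 with 92-1 disregarded. From 2 DMSO lists it was 4615 to 5673, and 5673 without DMSO replicate 3. The mean treated share of A375-only regions lay below the mean held-out share under every alternative run, by 13.6 (thinned lists) to 35.7 points apart from left-out replicates. Single lists of both groups overlapped with evaluated peaks at −log10 q of at least 1.3, with strict peaks and with thinned lists (exact permutation p = 0.2 each). They also overlapped where a call had to cover at least as much of a region as it left out (−29.5 points, exact permutation p = 0.2). Leaving out a replicate gave differences of −36.3 to −4.1 points, with −4.1 and −4.41 without DMSO replicates 1 and 2 and −9.19 without DMSO replicate 3. There the regions are chosen from 1 list and control shares are only 12.8% to 20.4%. The change of the gap in points turned in direction with thinned lists (3.14) and without DMSO replicate 1 (3.22), 2 (2.18) or 3 (3.88). Over all left-out replicates it ran from −15.1 to 3.88. Where only the held-out value of a DMSO replicate was dropped, an alternative chosen after seeing the data like the log2 ratio, the distal regions and the left-out lines, it was −14.7 to −12.1. The difference in the other lines' treated lists lost its call without 92-1 (−0.578, p = 0.241, permutation test) and was −2.44 to −1.61 over left-out replicates.

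With the replicate number as a block, the exact sign-flip test gave p = 0.25 for the change of the share (−28.9 points) and of the gap (−13.2 points), the smallest 3 pairs allow, and p = 0.0216 for the other lines (−1.78 points). It changed no call. Weak peaks repeat poorly: the control share of the weakest quartile was 38.4%, so absence of a call at this depth does not show closed chromatin.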
